A study of Homo sapiens with 8 samples.

Results

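Fibronectin, tenascin-C, thrombospondins and other matricellular and microfibril genes, 10 in all, were measured in ZR-75-1 cells, an oestrogen receptor positive line of luminal breast carcinoma, after stable knockdown of EI24, a membrane protein of the endoplasmic reticulum. They are FN1, TNC, EDIL3, THBS1, THBS2, THBS3, TGFBI, POSTN, FBN1 and SPARC. They were listed by symbol and found in the annotation of the array, 10 of 18417 genes measured, and each was read by 1 transcript cluster, the set of probes for a gene. Matricellular proteins are secreted proteins that sit in the extracellular matrix without building its fibres and that tune how cells hold on to it. Fibronectin is assembled by integrins into fibrils to which tenascin-C and thrombospondins bind, and fibrillin microfibrils store latent TGF-beta. In breast carcinoma these proteins are mostly known as products of the stroma, and fibronectin in the tumor cell itself is a widely used mesenchymal marker.

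RNA from 4 lines was hybridised to 8 arrays, 2 for each line. ZR-shEI24 cells carried an shRNA against EI24 and were profiled as clone 1 and clone 2, which the submitters describe as independent clones, so that each stands for a single isolate. ZR-75-1 cells with an shRNA against GFP (shGFP) were the control line and unmodified ZR-75-1 cells the parental line, and all lines were grown in serum-containing medium with no chemical treatment. In the ZR-shEI24 labels the leading number was read as the clone and the trailing one as the array. The sources do not say whether the 2 arrays of a line are 2 cultures, and every p-value here rests on array-to-array spread alone, which may be technical. Values are log2 intensities after RMA normalization, and 1 unit is a 2-fold difference. A level is called dim here when the mean of the group lay below the 25th percentile of all genes in that group, at 6.62 in ZR-shEI24 and 6.42 in shGFP cells. A fold change against a dim group is a lower bound, because intensities near the floor hold mostly background. Apart from this limit and the summed levels of cell type markers, array values were not compared between genes, since probes differ in brightness. The limit is therefore approximate for a single gene.

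The knockdown was visible in every array. EI24 was at 8.64 and 8.43 in clone 1 and at 9.25 and 9.19 in clone 2, against 11.97 and 11.91 in shGFP and 12.08 and 12.09 in parental cells. It was 8.35-fold lower in ZR-shEI24 than in shGFP cells (log2 fold change -3.06, SE 0.08, limma adjusted p = 8.6e-09), and the clone 1 level lay 0.68 below that of clone 2 (limma adjusted p = 0.0023). The array medians were 7.28 to 7.39, and the arrays of a line correlated at r = 0.994 to 0.998 across genes, which are not independent replicates. Of 12 markers of luminal breast lines, 12 were lower in ZR-shEI24 than in shGFP cells, with summed log2 levels of 13.36 to 13.997 in the ZR-shEI24 arrays and 15.77 to 15.88 in the 4 shGFP and parental arrays. ESR1, CDH1, PGR and AGR2 were dim in ZR-shEI24 cells. At a limma adjusted p under 0.05, 26.8% of all genes were higher and 29.0% lower. Of 9 fibroblast markers, 1 was higher (PDGFRA, by 0.28). Their summed levels were 9.89 to 10.06 in ZR-shEI24 and 9.75 to 9.94 in the control arrays. The 9 differences ran from 0.02 (COL1A1) to 0.28, with a median of 0.18. PDGFRA, DCN, LUM and FAP were dim in every line. Of 5 endothelial markers, 2 were higher (KDR, dim in both control lines, and PECAM1, dim in every line). Their sums were 8.88 to 9.04 in ZR-shEI24 and 8.21 to 8.39 in the control arrays over all 5. Of 5 leukocyte markers, 3 were higher: CD68 by 3.95, CD14 by 0.89 and PTPRC by 0.21, the last with limma adjusted p = 0.043. CD3E at 0.02 and LYZ at -0.04 did not pass (limma adjusted p = 0.88 and 0.74). The sums were 11.94 to 12.10 in ZR-shEI24 and 8.80 to 9.07 in the control arrays. CD68 alone averaged 11.89 in ZR-shEI24 and 8.01 in the control arrays. PTPRC, the defining pan-leukocyte gene, was dim in every line, and each ZR-shEI24 array lay above the control arrays. The part of these shifts in the results was not tested, and in bulk RNA more transcript per cell and more cells with the transcript cannot be told apart.

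Most of the matrix genes were higher after EI24 knockdown. Against shGFP cells, 8 of 10 rose in ZR-shEI24 cells, 1 fell (THBS3) and 1 did not pass the test (POSTN), by limma with Benjamini-Hochberg adjustment over all 18417 genes. Over all genes 55.9% passed, 26.8% in the higher and 29.0% in the lower direction. A difference of at least 2-fold was found upward in 6 of the 10 genes and downward in 1, where the shares over all genes were 8.69% and 9.08%. The median log2 fold change was 2.51 over the 10 genes and 0.08 over all genes. The 10 genes were chosen with earlier results of these data known, so these shares and medians are no test of the set. In 8 of the 10 every ZR-shEI24 array lay above all 4 shGFP and parental arrays, and in 1 every one lay below them; over all genes these shares were 23.8% and 26.9%.

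**Figure D1:**
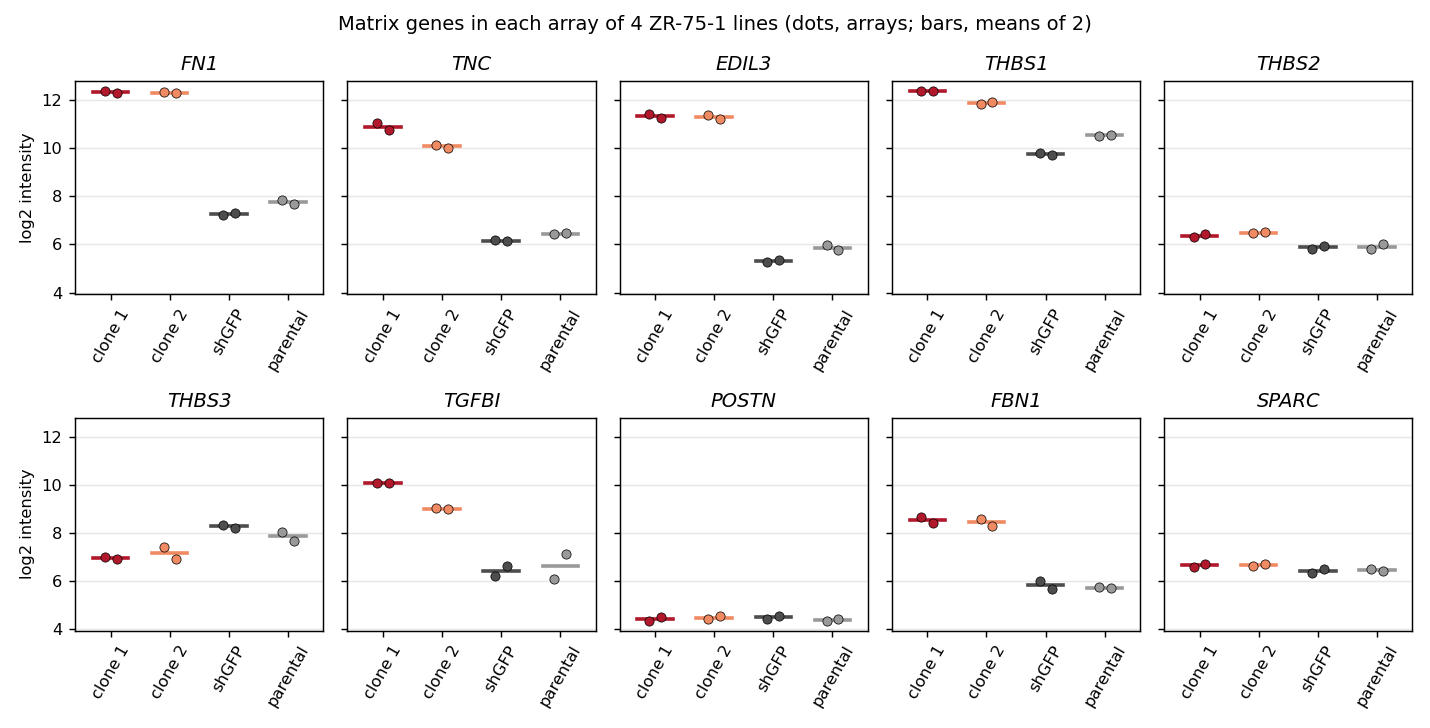
Log2 intensity of the 10 matrix genes (vertical axis) in the 2 arrays of each line (dots) with the line mean (bar), for clone 1 and clone 2 of ZR-shEI24, shGFP and parental cells. FN1, TNC, EDIL3, THBS1, TGFBI and FBN1 stand more than 2-fold above shGFP cells in both clones, THBS3 stands below, and the POSTN dots overlap.

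The promoters of EDIL3, FN1 and TNC, the 3 genes with the highest fitted log2 fold changes, are shown with that of the gene that fell, THBS3, and that of POSTN, so that the sequences of genes that moved differently can be set side by side. The rises of EDIL3, TNC, TGFBI and FBN1 are lower bounds, so the order of their true sizes is not settled. Each is 300 bases of RefSeq GRCh38.p14, from 250 before to 50 after the annotated start, 5′ to 3′ along the gene, and all 5 genes lie on the minus strand, at chr5:84384831-84385130 (EDIL3), chr2:215436019-215436318 (FN1), chr9:115118108-115118407 (TNC), chr1:155207848-155208147 (THBS3) and chr13:37598719-37599018 (POSTN). The start used for THBS3 and for FBN1 lies inside the outer end of the gene. Capitals mark a CACCTG E-box on either strand in EDIL3 and THBS3, a cyclic AMP response element (TGACGTCA) in FN1, and an AP-1 site (TGANTCA) and 2 TATAAA boxes in POSTN. TNC has none of the letters searched.
EDIL3: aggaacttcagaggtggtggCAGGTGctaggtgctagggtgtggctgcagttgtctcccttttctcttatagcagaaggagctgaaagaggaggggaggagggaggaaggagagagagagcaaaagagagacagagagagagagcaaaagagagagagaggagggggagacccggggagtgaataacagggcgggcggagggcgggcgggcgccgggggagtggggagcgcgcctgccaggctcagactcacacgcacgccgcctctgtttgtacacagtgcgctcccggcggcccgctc
FN1: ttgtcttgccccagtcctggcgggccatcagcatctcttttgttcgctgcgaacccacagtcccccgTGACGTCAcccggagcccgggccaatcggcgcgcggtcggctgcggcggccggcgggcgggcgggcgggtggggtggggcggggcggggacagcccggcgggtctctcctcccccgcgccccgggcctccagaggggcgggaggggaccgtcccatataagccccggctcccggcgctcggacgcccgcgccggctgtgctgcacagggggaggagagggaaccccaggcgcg
TNC: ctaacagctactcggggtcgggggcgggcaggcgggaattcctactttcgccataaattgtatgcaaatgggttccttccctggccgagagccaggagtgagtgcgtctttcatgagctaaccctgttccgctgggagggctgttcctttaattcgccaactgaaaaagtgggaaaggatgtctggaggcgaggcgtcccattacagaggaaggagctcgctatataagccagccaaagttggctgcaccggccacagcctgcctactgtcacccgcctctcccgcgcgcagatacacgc
THBS3: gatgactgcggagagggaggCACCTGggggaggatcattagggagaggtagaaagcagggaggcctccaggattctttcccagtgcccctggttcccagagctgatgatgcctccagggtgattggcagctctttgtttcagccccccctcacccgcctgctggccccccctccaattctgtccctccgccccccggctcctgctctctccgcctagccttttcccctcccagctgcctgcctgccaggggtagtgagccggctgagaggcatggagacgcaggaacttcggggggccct
POSTN: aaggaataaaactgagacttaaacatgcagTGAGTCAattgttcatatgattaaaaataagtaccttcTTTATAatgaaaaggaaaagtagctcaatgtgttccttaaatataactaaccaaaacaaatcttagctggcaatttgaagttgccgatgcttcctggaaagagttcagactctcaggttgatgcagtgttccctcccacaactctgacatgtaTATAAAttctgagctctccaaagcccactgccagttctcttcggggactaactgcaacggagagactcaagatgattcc
The GC content of these windows was 62.7% in EDIL3, 76.7% in FN1, 57.3% in TNC, 64.7% in THBS3 and 39.0% in POSTN, and the median over 27305 promoters was 58.3%.

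Fibronectin and the integrin ligand EDIL3 rose strongly in both clones. FN1, on chromosome 2, encodes the glycoprotein that integrins assemble into fibrils. It was at 12.39 and 12.31 in clone 1 and 12.32 and 12.28 in clone 2, against 7.22 and 7.32 in shGFP and 7.85 and 7.67 in parental cells. The ZR-shEI24 arrays lay close together and far above all control arrays. FN1 averaged 12.33 ± 0.05 in ZR-shEI24 (SD, n = 4) and 7.27 ± 0.07 in shGFP cells (SD, n = 2), a 33.2-fold difference (log2 fold change 5.05, SE 0.08, limma adjusted p = 9.3e-10). Here and below, the ZR-shEI24 SD pools the 2 arrays of clone 1 and of clone 2. It mixes array spread with any difference between the clones. EDIL3, on chromosome 5, encodes a secreted protein with an RGD motif that binds alpha-v integrins. It was at 11.41 and 11.27 in clone 1 and 11.40 and 11.20 in clone 2, against 5.27 and 5.36 in shGFP and 5.96 and 5.78 in parental cells. The groups did not overlap, and EDIL3 was dim in both control lines. EDIL3 averaged 11.32 ± 0.10 in ZR-shEI24 and 5.32 ± 0.07 in shGFP cells, at least 64.1-fold higher (log2 fold change 6.003, SE 0.09, limma adjusted p = 8.8e-10).

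Tenascin-C rose in both clones, and more in clone 1. TNC, on chromosome 9, encodes the hexameric matricellular protein that modulates adhesion to fibronectin. Its levels were 11.03 and 10.76 in clone 1 and 10.13 and 10.02 in clone 2, against 6.18 and 6.13 in shGFP and 6.43 and 6.47 in parental cells. Both clones stood above every control array, and the clones did not overlap each other. TNC averaged 10.48 ± 0.49 in ZR-shEI24 and 6.16 ± 0.03 in shGFP cells, where it was dim, so that the 20.1-fold rise is a lower bound (log2 fold change 4.33, SE 0.09, limma adjusted p = 2.6e-09). The rise over shGFP cells was 4.74 in clone 1 and 3.92 in clone 2, comparisons that share the shGFP arrays. The direct difference of clone 1 minus clone 2 was 0.82 (SE 0.11, limma adjusted p = 0.0016), or 1.77-fold.

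The 3 thrombospondins moved differently. THBS1, on chromosome 15, encodes the trimeric protein that binds CD47 and CD36, restrains angiogenesis and can release active TGF-beta from its latent form. It was at 12.38 and 12.39 in clone 1 and 11.85 and 11.90 in clone 2, against 9.81 and 9.72 in shGFP and 10.51 and 10.56 in parental cells. All 4 lines were apart, in the order clone 1, clone 2, parental, shGFP. THBS1 averaged 12.13 ± 0.29 in ZR-shEI24 and 9.76 ± 0.07 in shGFP cells, 5.15-fold higher (log2 fold change 2.37, SE 0.07, limma adjusted p = 1.65e-08). Against parental cells, in which it was higher than in shGFP cells, the rise was 3.02-fold. Of the 6 genes at least 2-fold higher, THBS1 and FN1 were the ones that were not dim in shGFP cells. THBS2, on chromosome 6, encodes the related trimer of subgroup A. It was at 6.30 and 6.43 in clone 1 and 6.45 and 6.52 in clone 2, against 5.81 and 5.94 in shGFP and 5.81 and 5.999 in parental cells. The arrays of the groups did not overlap, but every line was dim. The difference of ZR-shEI24 minus shGFP was 0.55 (SE 0.09, limma adjusted p = 6.3e-04), and it was not past a 2-fold change when tested against one. THBS3, on chromosome 1, encodes a pentameric thrombospondin of subgroup B. It was at 6.98 and 6.91 in clone 1 and 7.41 and 6.93 in clone 2, against 8.35 and 8.20 in shGFP and 8.05 and 7.67 in parental cells. The first array of clone 2 stood above the other ZR-shEI24 arrays and still below every control array. THBS3 averaged 7.06 ± 0.24 in ZR-shEI24 and 8.28 ± 0.10 in shGFP cells, 2.33-fold lower (log2 fold change -1.22, SE 0.15, limma adjusted p = 1.1e-04). Without that array it was -1.34. Against parental cells the fall was 1.74-fold (log2 fold change -0.80, limma adjusted p = 0.0016).

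Of the 2 fasciclin-domain proteins, TGFBI rose and POSTN did not pass the test. TGFBI, on chromosome 5, encodes the TGF-beta-induced protein, which binds collagens and integrins. It was at 10.09 and 10.09 in clone 1 and 9.03 and 8.98 in clone 2, against 6.21 and 6.62 in shGFP and 6.08 and 7.15 in parental cells. The parental arrays differed by more than 1 unit, and all control arrays lay below both clones. TGFBI averaged 9.55 ± 0.63 in ZR-shEI24 and 6.42 ± 0.29 in shGFP cells, where it was dim, at least 8.76-fold higher (log2 fold change 3.13, SE 0.25, limma adjusted p = 6.2e-06). POSTN, on chromosome 13, encodes periostin, a matrix protein of fibroblasts that binds tenascin-C and fibronectin. It was at 4.35 and 4.51 in clone 1 and 4.42 and 4.53 in clone 2, against 4.43 and 4.56 in shGFP and 4.36 and 4.41 in parental cells. The arrays overlapped and every line was dim. The difference of ZR-shEI24 minus shGFP was -0.04 (SE 0.09, limma adjusted p = 0.70).

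Fibrillin-1 rose in both clones, and SPARC differed by a small amount. FBN1, on chromosome 15, encodes the main subunit of the microfibrils that carry elastin and latent TGF-beta. It was at 8.65 and 8.41 in clone 1 and 8.60 and 8.29 in clone 2, against 5.99 and 5.67 in shGFP and 5.74 and 5.70 in parental cells. The ZR-shEI24 arrays lay above every control array, and the control lines were dim. FBN1 averaged 8.49 ± 0.17 in ZR-shEI24 and 5.83 ± 0.23 in shGFP cells, at least 6.31-fold higher (log2 fold change 2.66, SE 0.13, limma adjusted p = 2.4e-07). SPARC, on chromosome 5, encodes osteonectin, which binds collagen and calcium. It was at 6.60 and 6.70 in clone 1 and 6.61 and 6.71 in clone 2, against 6.35 and 6.49 in shGFP and 6.49 and 6.43 in parental cells. The groups were apart by less than the difference between the 2 arrays of shGFP, and the levels were close to the limit for dim genes. The difference of ZR-shEI24 minus shGFP was 0.24 (SE 0.08, limma adjusted p = 0.034), or 1.18-fold. It was 0.05 (adjusted p = 0.61) after a second quantile normalization and 0.20 (adjusted p = 0.068) against parental cells. Without the first shGFP array it was 0.17 (adjusted p = 0.29), and the call was also lost without the second shGFP array (adjusted p = 0.058), the second array of clone 1 (0.071) or the second array of clone 2 (0.083).

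**Figure D2:**
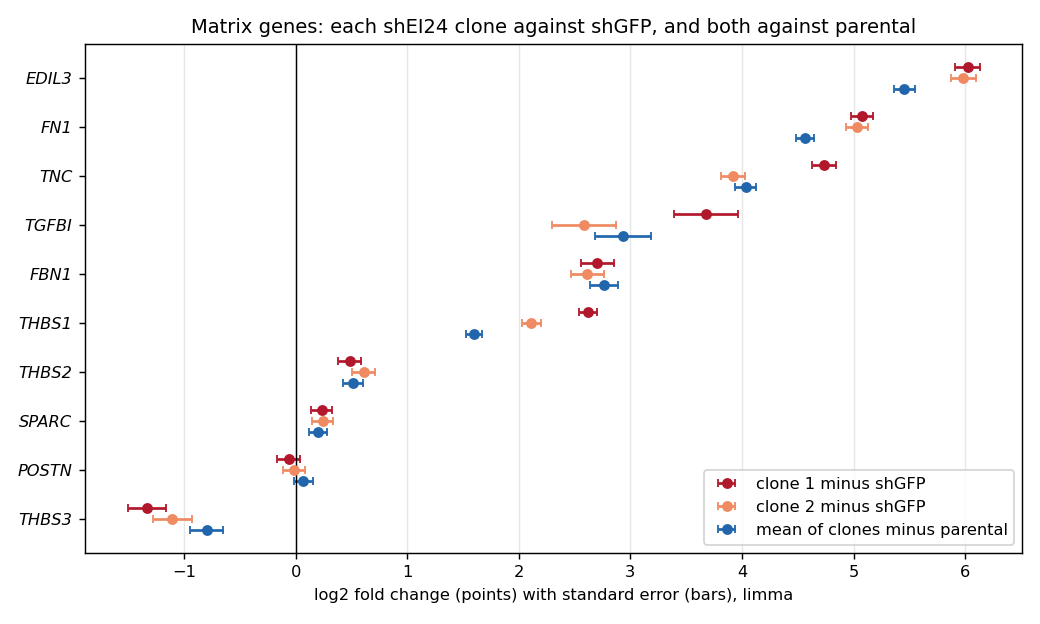
Limma log2 fold changes (horizontal axis, points, with standard error bars) of the 10 matrix genes for clone 1 minus shGFP, clone 2 minus shGFP, and the mean of both clones minus parental cells. EDIL3 is highest, at 6.02 in clone 1 and 5.98 in clone 2 against shGFP cells, and THBS3 is the only gene below 0 by more than its standard error.

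Each clone was also set against shGFP cells on its own, in comparisons that share the shGFP arrays. Against shGFP cells, 7 of the 10 genes rose and 1 fell in clone 1, with 23.0% of all genes higher and 26.6% lower, and 7 rose and 1 fell in clone 2, with 25.2% higher and 27.8% lower. The gene called over both clones and not in each was SPARC, at 0.23 in clone 1 (limma adjusted p = 0.068) and 0.24 in clone 2 (0.057). It passed in both with the array number as a block (adjusted p = 0.030 and 0.024). Against parental cells, 7 genes rose and 1 fell, where 25.1% of all genes were higher and 30.8% lower. FN1 was 23.7-fold, EDIL3 at least 43.8-fold, TNC 16.4-fold, TGFBI 7.64-fold and FBN1 at least 6.80-fold above parental cells.

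The clones differed in 3 of the genes. TNC, THBS1 and TGFBI were higher in clone 1 than in clone 2, none was lower, and 9.29% of all genes were higher and 5.88% lower. EI24 was itself lower in clone 1, and its part in these differences was not tested. THBS1 differed by 0.51 (SE 0.08, limma adjusted p = 0.0048), or 1.42-fold. TGFBI differed by 1.09 (SE 0.29, limma adjusted p = 0.036), or 2.12-fold, and this call was lost when any 1 of the 4 ZR-shEI24 arrays was left out (adjusted p of 0.10 to 0.12). For FN1 the difference of clone 1 minus clone 2 was 0.05 (SE 0.10, adjusted p = 0.83), for EDIL3 0.04 (adjusted p = 0.88), for FBN1 0.09 (adjusted p = 0.78), for SPARC -0.01 (adjusted p = 0.97), for THBS2 -0.12 (adjusted p = 0.52) and for THBS3 -0.23 (adjusted p = 0.49).

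The control lines were also unequal. Of the 10 genes, 3 were lower in shGFP than in parental cells, where 7.44% of all genes were lower, and none was higher, where 3.21% were. THBS1 differed most, by -0.77 (limma adjusted p = 0.0013), or 1.70-fold. EDIL3 differed by -0.55 (adjusted p = 0.016) and FN1 by -0.49 (SE 0.10, adjusted p = 0.015). The calls for FN1 and EDIL3 were lost without either shGFP array or without the first parental array (adjusted p of 0.090 to 0.14). THBS3 was higher in shGFP cells by 0.42 (adjusted p = 0.18), and passed with the array number as a block (adjusted p = 0.037).

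**Figure D3:**
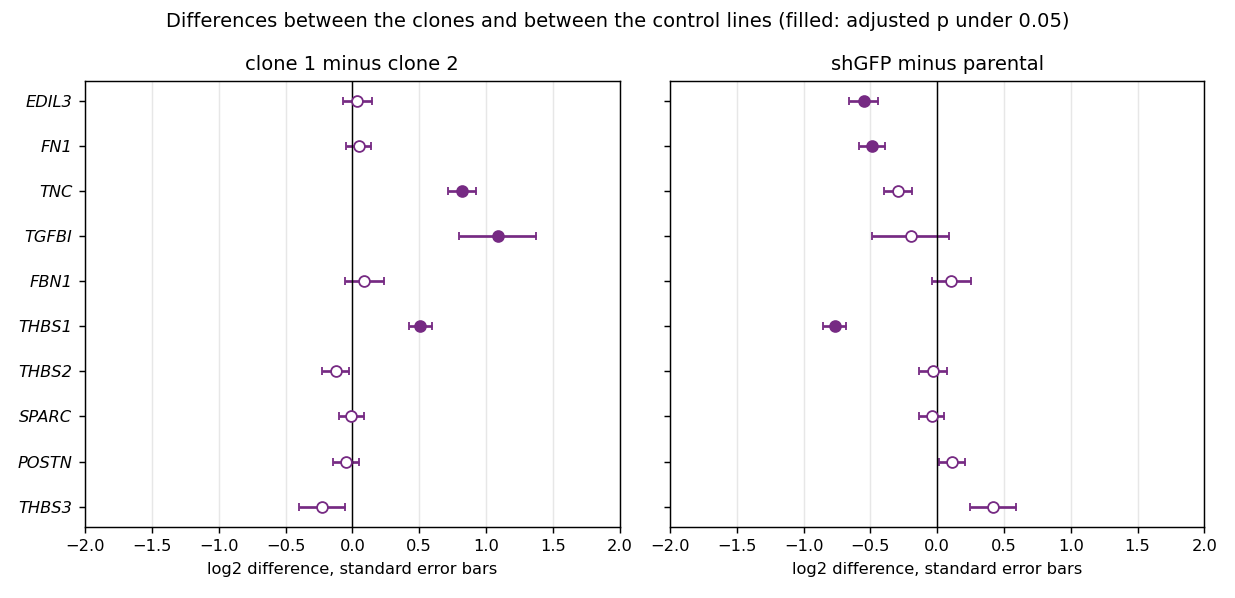
Log2 differences (horizontal axis, points, with standard error bars) of the 10 matrix genes for clone 1 minus clone 2 and for shGFP minus parental cells, with filled points for adjusted p under 0.05. TNC, THBS1 and TGFBI are filled on the positive side between the clones, and THBS1, EDIL3 and FN1 on the negative side between the control lines.

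Relatives of the 10 genes were read for comparison. Of 16 measured members of the same families, 4 rose and 1 fell in ZR-shEI24 against shGFP cells, with a median log2 fold change of 0.22, where that of all genes was 0.08 and 26.8% of them were higher and 29.0% lower. FSTL1, a secreted SPARC relative, rose by 4.99 (limma adjusted p = 1.3e-09), against a dim control. SPOCK1, a testican proteoglycan of the same family, rose by 3.93, and the difference of clone 1 minus clone 2 was -1.47 (adjusted p = 4.3e-04). MFGE8, the closest relative of EDIL3, rose by 2.14, and SMOC2, dim in ZR-shEI24 cells, fell by at least 0.77. Clone 1 minus clone 2 was -0.695 for MFGE8 (limma adjusted p = 0.0020) and 0.61 for FSTL1 (limma adjusted p = 0.0057). The 11 that did not pass included THBS4 at -0.04, COMP at 0.41, TNR at 0.24 and FBN2 at 0.19.

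Of 16 other matricellular proteins, 7 rose and 2 fell, with a median of 0.17, where 26.8% of all genes were higher and 29.0% lower. The CCN proteins CCN2 and CCN1, which bind integrins and heparan sulfate, rose by 4.51 and 4.50. CCN2 was at 12.06 and 11.97 in clone 1 and 11.57 and 11.49 in clone 2, against 7.08 and 7.44 in shGFP and 7.24 and 7.62 in parental cells, with no overlap. CCN3 rose by 3.16 and LGALS3, a galactoside-binding lectin, by 2.42. Clone 1 minus clone 2 was 0.88 for CCN3 (limma adjusted p = 0.0052) and -0.58 for LGALS3 (limma adjusted p = 0.0062). Of 18 microfibril and elastic fibre partners, 7 rose and 4 fell, with a median of 0.24 and none at least 2-fold higher. LTBP1, which ties latent TGF-beta to fibrillin, fell by 1.69, and its levels in clone 1 exceeded those in clone 2 by 1.67 (limma adjusted p = 4.7e-05). LTBP3 fell by 0.84, the microfibril glycoprotein MFAP2 was lower at -0.71, and ADAMTSL4, a fibrillin-binding protein, rose by 0.74. For ADAMTSL4 clone 1 minus clone 2 was -0.54 (limma adjusted p = 0.011). ELN, which encodes elastin, was at 0.24 (adjusted p = 0.11).

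Of 19 measured receptors for these proteins, 13 rose and 1 fell, with a median of 0.57, where 26.8% of all genes were higher and 29.0% lower. ITGA5, the alpha chain of the classical fibronectin receptor, was at 12.06 and 12.04 in clone 1 and 11.95 and 11.90 in clone 2, against 7.46 and 7.50 in shGFP and 7.60 and 7.33 in parental cells. It did not overlap between the groups and rose by 4.51 (SE 0.09, limma adjusted p = 1.9e-09). ITGA3 rose by 3.51 and ITGA2, a collagen receptor chain, by 1.61, with clone 1 minus clone 2 at 0.30 for ITGA2 (limma adjusted p = 0.048). ITGB3, a beta chain that pairs with alpha-v, was dim in both control lines and rose by at least 1.60. The thrombospondin receptor CD47 fell by 0.24 over both clones (adjusted p = 0.033), and its ZR-shEI24 and shGFP arrays overlapped. It was at -0.05 in clone 1 (adjusted p = 0.70) and -0.42 in clone 2 (adjusted p = 0.0040). The difference of clone 1 minus clone 2 was 0.38 (adjusted p = 0.027). For CD47 the difference of shGFP minus parental cells was -0.41 (adjusted p = 0.026), and that of ZR-shEI24 minus parental cells -0.64 (adjusted p = 1.1e-04). CD36 was dim in every line, at -0.09 (adjusted p = 0.38). Those 2 genes and ELN were named after their values were seen.

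Of 18 enzymes that cross-link or cleave these proteins, 15 rose and 1 fell, with a median of 1.88 and 12 at least 2-fold higher. Over all genes 26.8% were higher, 8.69% at least 2-fold higher, and 29.0% lower. The plasminogen activators PLAT and PLAU rose by 6.20 and 5.35. LOX, which cross-links collagen and elastin, rose by 5.09 against a dim control, and MMP14, a membrane-bound matrix metalloproteinase, by 4.37. Clone 1 minus clone 2 was -0.40 for PLAT (limma adjusted p = 0.015) and 0.55 for MMP14 (limma adjusted p = 0.018). HTRA1, a secreted serine protease, was the 1 that fell, by 0.46. Of 14 genes of the TGF-beta pathway, for which several of the matrix genes are known targets, 7 rose and 4 fell, with a median of 0.29. The receptor TGFBR2 rose by 4.59, with a difference of clone 1 minus clone 2 of 1.68 (limma adjusted p = 1.5e-04). The ligand TGFB2 rose by 3.73 and the co-receptor TGFBR3, dim in shGFP cells, by 2.28, while TGFB1 rose by 2.04. The control lines differed in these genes. Against parental cells the rise was smaller for TGFBR2 (3.55), TGFBR3 (1.23) and TGFB1 (1.25), and larger for TGFB2 (4.48). TGFB3, dim in ZR-shEI24 cells, fell by at least 1.82 and SMAD7, the inhibitory SMAD, by 1.17, both named after their values were seen. Clone 1 minus clone 2 was -0.46 for TGFB1 (limma adjusted p = 0.010) and 0.49 for SMAD7 (limma adjusted p = 0.010).

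The genes whose profiles over the 8 arrays lay closest to each matrix gene were found by the root mean square difference after centring each gene on its mean. For FN1 this was EGFR, the epidermal growth factor receptor, at 0.06, with a rise of 5.02. It was MMP14 for TNC at 0.15, CDC42EP3 for EDIL3 at 0.15, GBE1 for THBS1 at 0.08, GRB14 for THBS3 at 0.09, CCN3 for TGFBI at 0.26 and FYN for FBN1 at 0.11. For SPARC it was WNT16 at 0.03 and for THBS2 RELN at 0.04. Within 0.5 of the profile lay 39 genes for EDIL3, 105 for TGFBI, 107 for FN1, 141 for TNC, 465 for FBN1 and 682 for THBS1. The flatter profiles had many more, with 5403 for THBS3, 12885 for THBS2 and 14267 for SPARC.

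The promoters shared few of the letters searched. The TEAD site GGAATG, on either strand, was in 4 of the 10 windows (SPARC, THBS1, THBS2 and FBN1), and in 14% of all 27305 promoters of the same length. These are shown because they are the 1 motif found in more than 2 of the genes. Each is the match in capitals with the bases around it, read along the gene, at chr5:151686907-151686952 on the minus strand for SPARC, chr15:39581013-39581058 on the plus strand for THBS1, chr6:169253912-169253957 on the minus strand for THBS2 and chr15:48645003-48645048 on the minus strand for FBN1. In SPARC the capitals are the reverse complement. The THBS2 stretch also holds, in lower case, the second of its matches on the opposite strand.
SPARC: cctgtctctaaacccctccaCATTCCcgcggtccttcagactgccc
THBS1: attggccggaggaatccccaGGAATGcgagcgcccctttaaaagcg
THBS2: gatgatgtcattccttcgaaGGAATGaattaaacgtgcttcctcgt
FBN1: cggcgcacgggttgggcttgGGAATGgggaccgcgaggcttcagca
The matches began at -17 in SPARC, -46 in THBS1, -103 and -91 in THBS2 and -58 in FBN1, counted from the start site. These 4 genes comprised a 5.15-fold rise (THBS1), a rise of at least 6.31-fold (FBN1) and the small differences of THBS2 and SPARC. The consensus for p65, the NF-kB subunit, was in 0 of the 10 windows and in 0.26% of all promoters, and a wider NF-kB consensus was in 0 and in 10.8%. Both are exact patterns, and variants with other letters or lengths were not searched. The CACCTG E-box bound by ZEB and SNAI factors was in EDIL3 and THBS3, from -230 to -225 in both, and in 20.6% of all promoters. EDIL3 rose and THBS3 fell. The AP-1 site was only in POSTN of the 10 and in 7.76% of promoters, the cyclic AMP response element only in FN1 (-183 to -176) and in 1.98%, and TATAAA in THBS2 and POSTN, from -29 to -24 in both, and in 12.0%. A match is a description of the letters in this window and no measure of binding.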

How the data were processed

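RNA of ZR-75-1 cells was measured on 8 Affymetrix arrays. The deposited table holds 1 log2 intensity for each transcript cluster in each array, made by the authors with GCOS and RMA, named in the submitters' processing notes without versions. RMA removes background, gives all arrays a like distribution and summarizes probes, which compresses differences of dim genes. The study's methods name a human exon array, while the annotation supplied for this table names its 33297 clusters by gene-level identifiers. Of them 19460 have 1 symbol, 1754 several and 12083 none here. The cluster with the highest mean was kept for each gene, which set aside 1043 and left 18417.

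Differences were computed in R 4.3.3 by limma 3.58.1, using lmFit and eBayes on 1 mean per line, 4 residual degrees of freedom, Benjamini-Hochberg adjustment over all genes and a threshold of 0.05. On simulated data with 200 changed genes of 18417, the comparison of shEI24 with shGFP recovered 88.8% of those raised by a log2 change of 1 and 45.6% of those raised by 0.5. In the real data 55.9% of genes were called, a far larger share, so these rates do not give the power there. Arrays have no read depth, and their number limits the precision. Array numbers were checked as pairs: deviations of same-numbered arrays correlated at r = 0.25 to 0.59 in all 6 pairs of lines over 18417 genes, so they were tried as a block. The named genes were the 10, EI24, up to 4 of each list with the largest change past the threshold, and the closest profile to each matrix gene that passed. THBS4, COMP, TNR, FBN2, HTRA1 and the single cell type markers given by name fall outside this rule and were chosen after their values were seen. The matrix genes and lists were chosen with earlier results of these data known. Promoters are RefSeq windows of GRCh38.p14, all 10 matched by symbol, searched on both strands. Alternatives were other controls, normalizations, variance models, tests and single arrays left out. Some listed genes are not analysed here.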

Additional observations from a re-analysis of the deposited data

Results flagged for a closer look

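In THBS3 the first array of clone 2 stood apart from the other 3 ZR-shEI24 arrays. Its gap to the next array, 0.43 on the log2 scale, was 0.848 of the range of the 4 arrays. This check was made on 2 groups of 4 arrays for each of the 10 genes, 20 groups in all. For 4 arrays of 1 population chance picks out about 1 in 20. Each group here pools 2 lines, so that rate need not hold.

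In 3 genes the clones differed by a direct test within the limma model, with clone 1 higher than clone 2 by 0.82 for TNC, by 0.51 for THBS1 and by 1.09 for TGFBI. Each clone is a single isolate, so clone and any other difference between the isolates cannot be told apart.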

How the results depend on the processing

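The array number as a block added 1 call between shGFP and parental cells (THBS3), so that 1 of the 10 genes was higher, and apart from it and SPARC in the single clones changed no call of the 10 genes. A test against a 2-fold change (limma treat) left 0 genes lower and 6 higher in ZR-shEI24 against shGFP cells (THBS3 adjusted p = 0.63), against 1 and 8. The 8 higher genes were 6 to 8 over all alternatives. Over all 18417 genes, those higher were 4369 to 6307 in the alternatives counted, against 4941. Those lower were 5495 to 5743, against 5348. Genes lower in shGFP than in parental cells were 1 to 3 with 1 array left out. Shares over all genes were not counted for the 2-fold test or for shGFP against parental cells in the alternatives. Signs turned only for differences that did not pass. POSTN was at 0.069 against parental cells, 0.014 against pooled controls and 0.014 with each line as 1 replicate. After a second quantile normalization clone 1 minus clone 2 was -0.020 for FN1 and 0.010 for SPARC. With 1 array left out, clone 1 minus clone 2 ranged from -0.059 to 0.13 for EDIL3, -0.068 to 0.25 for FBN1, -0.13 to 0.034 for POSTN, -0.060 to 0.044 for SPARC and -0.47 to 0.018 for THBS3. POSTN against shGFP cells ranged from -0.14 to 0.016 in clone 1, -0.086 to 0.050 in clone 2 and -0.11 to 0.027 over both. The difference of shGFP minus parental cells ranged from -0.055 to 0.27 for FBN1, -0.11 to 0.030 for SPARC, -0.73 to 0.34 for TGFBI and -0.12 to 0.061 for THBS2. The cause was not tested. Listed genes that rose were 44 to 63 over the alternatives, against 53, and those that fell were 10 to 16, against 13. In the 150 bases of the promoter nearest the start, the TEAD site was still in 4 genes (7.13% of all promoters) and TATAAA in 2 (6.35%), and the E-box (10.5%), AP-1 site (3.94%) and cyclic AMP response element (1.46%) in 0. Dim controls limit TNC, EDIL3, TGFBI and FBN1 to lower bounds, and THBS2 and POSTN were dim in every line.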

Other observations

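The genes flanking the matrix genes on their chromosomes were read as well. Of 20 nearest measured protein-coding neighbours, 5 were higher and 9 lower in ZR-shEI24 than in shGFP cells by limma, that is 14 called, where 55.9% of all genes were called in either direction. Both neighbours of FN1 were lower (ATIC at -1.17 and MREG at -2.53), as were both of FBN1 (DUT at -1.004 and CEP152 at -1.02). Both neighbours of TNC were higher (TNFSF8 at 0.36 and PAPPA, a metalloproteinase, at 1.57). Beside EDIL3, HAPLN1 was at -0.07 (limma adjusted p = 0.71) and COX7C at -0.41, and beside TGFBI, LECT2 was at -0.02 and SMAD5 at -6e-04, neither past the threshold. THBS3 lies between MUC1, an epithelial mucin gene, at -3.40 and MTX1 at -0.06 (adjusted p = 0.58). The neighbours given by name were picked after their values were seen.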
